A study of Olea europaea with 36 samples.

Results

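The comparison set the shoot tips of seedlings with the canopy of the olive variety Chiquitita against those of Arbosana, one of the varieties crossed to make them. Its members were the 3 arrays of the seedling pool, called ChiCa here, and the 3 arrays of Arbosana, 6 of the 36 arrays in the series, taken by their labels. All 37449 contigs of a NimbleGen array of 60-mer probes were compared. ChiCa is a pool of several seedlings from Chiquitita x Arbosana, chosen because each had the shrubby, compact and weeping Chiquitita canopy, and equal amounts of tissue were mixed before RNA extraction. Arbosana is a single variety, so its arrays came from 1 genotype, while ChiCa mixed several genotypes of 1 family. Both groups were active meristems (the last centimetres of growing shoots, shoot apex included) of field-grown adult olive trees (Olea europaea), harvested at the end of spring. Shoots of each group were harvested as 3 separate samples, 1 for each array, and the p-values therefore measure the spread between shoot samples, not between trees or seedlings. Canopy, genotype and the pooling of seedlings differ together between the groups and cannot be told apart here. In whole shoot tips, fewer cells of a type and less RNA per cell cannot be told apart either. Chiquitita, the other parent of the pool and itself a seedling of Picual x Arbequina, was measured on 3 arrays of the same kind, as were seedling pools with simple and with complex branching, also of Chiquitita x Arbosana. The remaining arrays came from Picual (active and dormant), Arbequina and the Picual x Arbequina pools SILe and LILe (short and long internodes) and SmaD and LarD (small and large trunk diameter), and 2 SmaD arrays carry a short internode label in another field.

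The shape of a tree is set by its apical and axillary meristems, groups of dividing cells that form leaves, stems and side shoots. In Arabidopsis the receptor kinase CLV1 restrains the stem cell regulator WUS, and the chromatin remodelling ATPase SYD acts on WUS expression. Gibberellins, brassinosteroids and auxin transport govern how far the new stem elongates, and cellulose synthases such as IRX1 build the secondary wall that stiffens it. Of the contigs on the array, 14 are named by the study, 11 of them after a putative Arabidopsis ortholog, and the deposited files pair no other contig with a gene. The roles given here are those of the Arabidopsis genes.

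For 12 of the 14 contigs the study designed primer pairs for RT-qPCR, 20 to 25 bases long with 40.9 to 58.3% G and C. These primers are not the array probes, which were not analysed here. The pairs of the 5 contigs with the clearest differences between ChiCa and Arbosana are shown to identify the olive transcripts, forward primer first within each pair. They are written 5′ to 3′ in lower case, with no part singled out.
SVP, Contig_35467, forward: tgccagctccagcatgaaggacata
SVP, Contig_35467, reverse: actgtcctcgactagctgcttcgg
SAL1, Contig_44917, forward: ttccacggtcaatggcatcgagc
SAL1, Contig_44917, reverse: gaaacccgaggaacactagtgcgc
SYD, Contig_67514, forward: ggctgctctccaatgttctc
SYD, Contig_67514, reverse: aaaggaggctaaggtgttgga
IRX1, Contig_6392, forward: agcaaatcgtgcactcactg
IRX1, Contig_6392, reverse: ctatccgccgtagagacactg
Contig_29050, forward: cttgctgctgtagttgagccta
Contig_29050, reverse: attcgcgatatgtgtgattctg

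Values are the deposited normalized intensities on a linear scale, and differences are on the log2 scale, ChiCa minus Arbosana. The medians of the arrays lay at 736 to 748 in ChiCa and 667 to 798 in Arbosana, and their 10th percentiles at 26.5 to 29.2 in ChiCa and 23.8 to 27.7 in Arbosana. How far signals stood above the scanner's background is unknown here, which leaves the size of a change against intensities near these percentiles uncertain. Across contigs, Pearson's r was 0.977 to 0.991 between ChiCa arrays, 0.962 to 0.972 between Arbosana arrays and 0.936 to 0.961 between a ChiCa and an Arbosana array. The ChiCa arrays were also the closer set contig by contig, with a median SD of 0.26 on the log2 scale, against 0.37 in Arbosana. The number of arrays limits the precision, and with 3 against 3 an exact permutation test of a single contig cannot go below p = 0.1.

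Between ChiCa and Arbosana, 2850 of 37449 contigs (7.61%) were called, that is, had a Benjamini-Hochberg adjusted p under 0.05 from limma and a change of at least 2-fold. ChiCa was higher for 1661 contigs (4.44%) and lower for 1189 (3.17%). The excess of higher calls depended on the scaling: after a second quantile normalization over the 9 arrays of the fit, 1358 contigs were called higher and 1586 lower. Changes were moderate, with a median of 3.004-fold among the higher calls and 2.895-fold among the lower calls. At least 4-fold changes were found for 676 contigs, 399 higher and 277 lower in ChiCa, and at least 16-fold changes for 29 higher and 16 lower. All 3 arrays of one group lay above all 3 of the other for 2848 of the 2850 calls, beside 12330 contigs in the whole table (32.9%). The call rule, applied to the same arrays, nearly ensures such separation, which is no further evidence for the calls. The count of calls rested on single arrays: it was 560 without ChiCa replicate 1, 1041 without ChiCa replicate 2 and 1450 without Arbosana replicate 2, against 2202 to 3585 without any one of the other 6 arrays. It was 1626 when the position of each array along a direction shared by replicates of other groups was a covariate. On that direction ChiCa replicates 1 to 3 lay at 28.5, 49.3 and -30.8 and Arbosana replicates 1 to 3 at -10.6, -67.3 and 1.83, and its part in the calls was not tested.

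**Figure D1:**
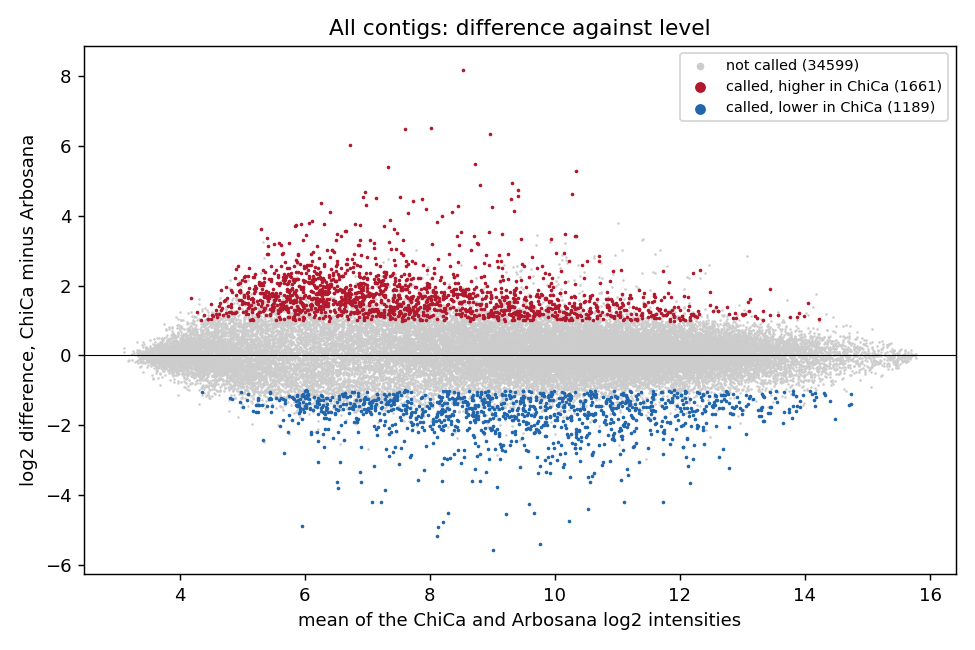
Each point is 1 contig, with the mean of the ChiCa and Arbosana log2 intensities on the x axis and the log2 difference, ChiCa minus Arbosana, on the y axis. The 1661 contigs called higher in ChiCa (red) lie further to the dim side than the 1189 called lower (blue), and grey points were not called.

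To see the size of the difference in arrays that took no part in the call, each pair of 1 ChiCa and 1 Arbosana array was held out in turn. Over the 9 pairs, 152 to 1890 contigs were called on the other arrays, and 85.9 to 98.7% of them had the same direction in the held-out pair. Their median change in the held-out pair was 1.86- to 7.85-fold, against 3.76- to 6.81-fold in the arrays that made the call. The lowest held-out value came from the pair of ChiCa replicate 3 and Arbosana replicate 1.

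On the deposited scale the direction of the calls changed with the intensity, and the counts by intensity were not repeated after another scaling. With the contigs split by mean intensity into 4 equal bins, 634 of the dimmest were called higher and 179 lower in ChiCa, and in the next bin 678 were higher and 449 lower. In the third bin 243 were higher and 336 lower, and in the brightest 106 were higher and 225 lower. The share of contigs called was 8.68, 12.04, 6.18 and 3.54% in the bins, dimmest first. Among called contigs at or above the median of the array in all 6 arrays, with no overlap, 189 were higher and 334 lower in ChiCa.

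Among the 14 contigs named by the study, 8 rose in ChiCa, 4 fell and 2 were not called, beside 7.61% of all contigs called. The 3 ChiCa arrays did not overlap with the 3 Arbosana arrays for any of the 14, against 32.9% of all contigs. The median absolute log2 difference was 1.66 over the 14 contigs and 0.40 over all contigs. The study chose its contigs on arrays of this series, among them those of ChiCa, Chiquitita and Arbosana, so these differences are a description and not independent evidence. In all 14, Chiquitita lay on the ChiCa side of Arbosana. The study's RT-qPCR of individual ChiCa seedlings placed IRX1, SPY, Contig_12843 and Contig_29050 significantly below Arbosana and not significantly apart from Chiquitita. Most other genes it tested lay nearer to Chiquitita in most seedlings, not always significantly apart from Arbosana, while SAL1 went the other way.

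Among the stem cell genes, the SYD contig fell in ChiCa. Its intensity was 907, 1244 and 431 in the ChiCa arrays, against 4036, 5891 and 7375 in the Arbosana arrays. All ChiCa arrays lay far below Arbosana, a log2 difference of -2.83 (standard error 0.38, adjusted p = 0.00304 from limma). In the fit over all 36 arrays the adjusted p was 0.0674, and active Picual averaged 2776 ± 4050 (SD, n = 3), with a wide spread of its own. CLV1, which limits the size of the stem cell pool, was bright in both groups, above the median of each of the 6 arrays. Its contig had 11282, 11229 and 9453 in ChiCa, against 5183, 4031 and 6317 in Arbosana, a 2.09-fold rise (log2 1.06, standard error 0.23, adjusted p = 0.0239). TPR1, a TOPLESS-related corepressor, was dim, at 43.9, 72.4 and 60.8 in ChiCa and at 26.3, 19.7 and 18.7 in Arbosana. Its Arbosana values lay under the 10th percentile of their arrays, so its rise of 1.44 (log2, standard error 0.30, adjusted p = 0.0193) is of uncertain size. CLV1 lost its call without ChiCa replicate 1 or 2 or without Arbosana replicate 1 or 2, and TPR1 without ChiCa replicate 2 or 3 or without Arbosana replicate 2 or 3. Both also lost it with the replicate direction as a covariate (adjusted p = 0.0758 and 0.0622 from limma). CLV1 further lost it in the fit over all 36 arrays (adjusted p = 0.0517), and TPR1 after 32 was added to each intensity (adjusted p = 0.0566). Over all alternatives the adjusted p from limma reached 0.119 for CLV1 and 0.0796 for TPR1.

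Contigs tied to hormones followed. DWF4, a rate-limiting enzyme of brassinosteroid synthesis, had 212, 246 and 121 in ChiCa and 90.9, 78.6 and 46.8 in Arbosana. The rise of 1.41 (log2, standard error 0.38) was just past the threshold (adjusted p = 0.0479). It was lost in 12 of 21 alternatives, among them those without ChiCa replicate 1 or 2, any Arbosana array or Chiquitita replicate 2, with an adjusted p of up to 0.183 from limma. SCL30, a GRAS family transcription factor, had 1041, 963 and 1002 in ChiCa, against 487, 342 and 520.5 in Arbosana. These ChiCa values were close together, and the rise was 2.26-fold (log2 1.18, standard error 0.24, adjusted p = 0.0164), lost without ChiCa replicate 1 or 2 or Arbosana replicate 2 (adjusted p of up to 0.0896 over all alternatives). SPY, an O-linked N-acetylglucosamine transferase homologue that represses gibberellin signalling, had 126, 97.1 and 222 in ChiCa and 296, 303 and 365 in Arbosana. The groups did not overlap, but the log2 difference of -1.20 (standard error 0.36) was not called (adjusted p = 0.0649).

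The cell wall and DNA replication contigs went in opposite directions. IRX1, a cellulose synthase of the secondary wall, had 267, 495 and 296 in ChiCa, against 1388, 1306 and 1008 in Arbosana. The fall was 3.60-fold (log2 -1.85, standard error 0.28, adjusted p = 0.00548), and 1 fit over all 36 arrays, which include dormant Picual at 2007 ± 3392 (SD, n = 3), gave an adjusted p of 0.349. CDC45, needed for the start of DNA replication and so tied to dividing cells, had 2238, 2420.35 and 1512 in ChiCa, against 674, 407 and 701 in Arbosana. This was a rise of 3.49-fold (log2 1.80, standard error 0.33, adjusted p = 0.0110), lost without ChiCa replicate 1 or 2 (adjusted p of up to 0.0662). Of the 12 groups, only dormant Picual had a lower mean CDC45 intensity than Arbosana by mean log2 value, at 540 ± 143 beside 594 ± 163 in Arbosana (SD, n = 3 each), a difference smaller than either SD.

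SAL1, a phosphatase of inositol phosphate and nucleotide metabolism, had 1766, 1852 and 1449.8 in ChiCa, against 424, 419.9 and 251 in Arbosana. The rise of 4.74-fold (log2 2.24, standard error 0.31, adjusted p = 0.0033) was called in all 21 alternatives. The study's RT-qPCR of individual ChiCa seedlings went the other way. There the SAL1 level did not differ significantly from Arbosana, but did from Chiquitita. The study states that its RT-qPCR ratio for this gene was very low, which made significance hard to establish. As its best explanation it proposes a different specificity of the methods and possible gene duplications. Arbosana was the lowest of the 12 groups for SAL1, and the other 11 group means lay at 1124 or above.

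SVP, a MADS-box repressor of flowering that lowers gibberellin at the shoot apex of Arabidopsis, had the largest difference of the 14. Its contig had 3452, 2117 and 3202 in ChiCa, against 631, 423 and 199 in Arbosana. The rise was 7.61-fold (log2 2.93, standard error 0.39, adjusted p = 0.00302) and was called in all 21 alternatives. ChiCa had the highest mean log2 value of the 12 groups, but its arrays overlapped those of Chiquitita (2102 ± 249.5, SD, n = 3). Arbosana was not the lowest: Arbequina averaged 61.3 ± 25.6 (SD, n = 3), while Picual averaged 1869 ± 582. EDL2, an F-box protein related to a regulator of phytochrome A signalling, had 170.3, 136 and 261 in ChiCa and 362, 391 and 418 in Arbosana, and its log2 difference of -1.10 (standard error 0.38) was not called (adjusted p = 0.104).

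The remaining 3 contigs have no gene name. Contig_29050 fell 6.28-fold, with 58.7, 104 and 68.0 in ChiCa, against 433, 314 and 755 in Arbosana (log2 -2.65, standard error 0.35, adjusted p = 0.00289). It was the lowest of the 12 groups in ChiCa and the highest in Arbosana, and it was called in all 21 alternatives. Contig_12843 had 833, 1258 and 745 in ChiCa, against 3373, 4385 and 4224 in Arbosana, where Picual (4011 ± 374) and Arbequina (3979 ± 833, SD, n = 3 each) were as high as Arbosana. Its fall (log2 -2.11, standard error 0.56, adjusted p = 0.0460) was lost without any single ChiCa or Arbosana array, with an adjusted p of up to 0.163. Contig_15512 had 192, 169 and 167 in ChiCa, against 63.8, 88.9 and 40.7 in Arbosana (log2 1.52, standard error 0.30, adjusted p = 0.0165), and this rise was lost without ChiCa replicate 1 or 2 (adjusted p of up to 0.0877).

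**Figure D2:**
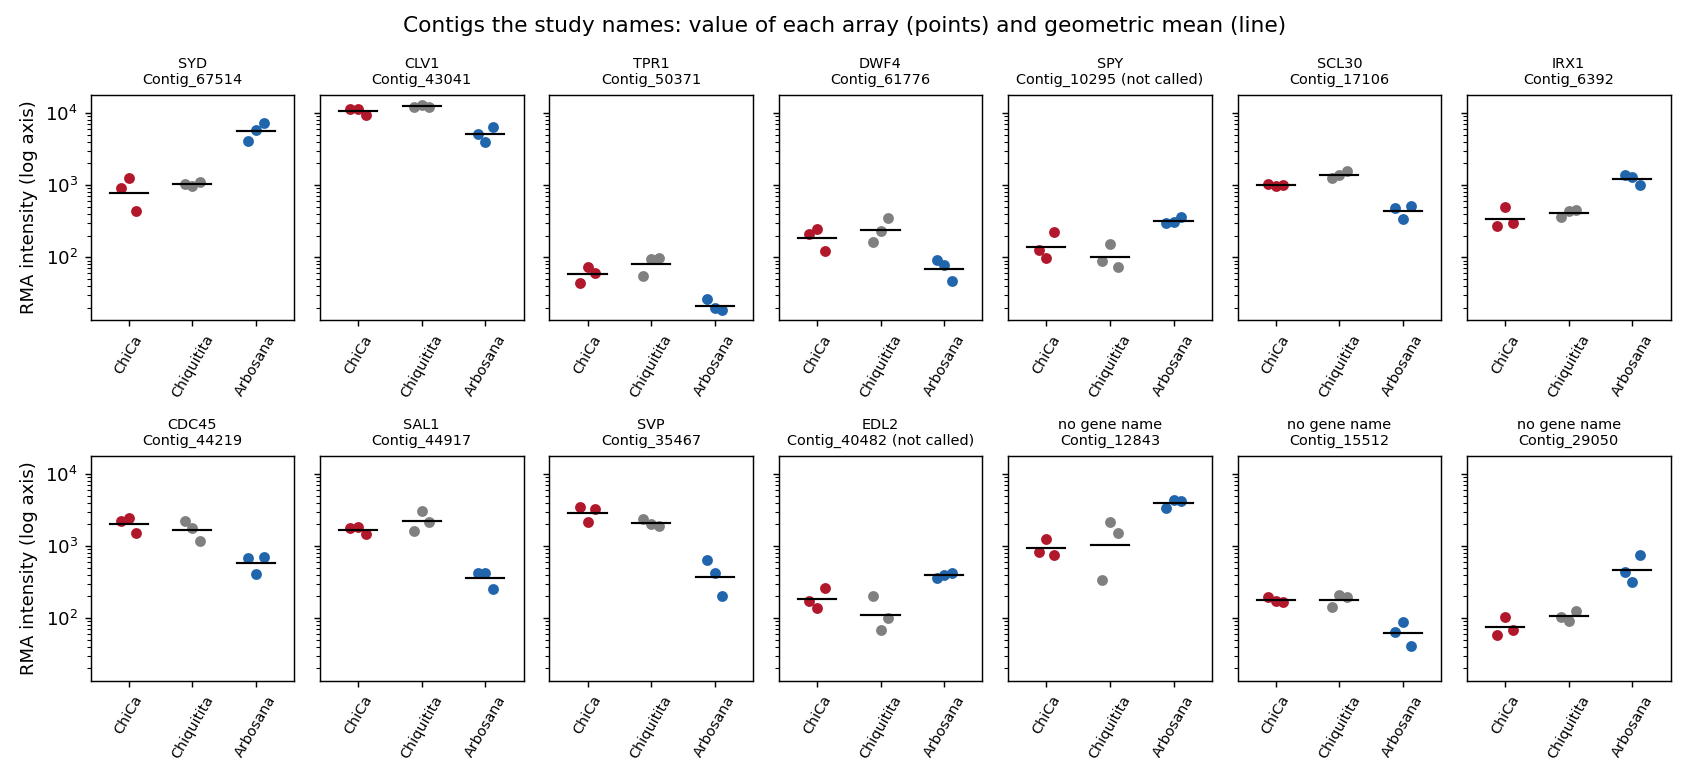
Normalized intensity (log axis) of the 14 contigs the study names, with 1 point per array and the geometric mean as a line, in ChiCa (red), Chiquitita (grey) and Arbosana (blue). No ChiCa point overlaps an Arbosana point in any panel, and Chiquitita lies on the ChiCa side in each.

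Of the 6 largest rises, 2 were near the bottom of the array on every Arbosana array. Contig_32787 had 4756, 6674 and 7949 in ChiCa, against 26.5, 22.8 and 17.0 in Arbosana (log2 8.18, standard error 0.39, adjusted p = 2.21e-05). Contig_43245 had 831, 1042 and 739 in ChiCa, against 11.1, 12.8 and 15.6 in Arbosana (log2 6.05, standard error 0.64, adjusted p = 0.00125). These were the only 2 contigs at or under the 10th percentile in all arrays of one group and at or over the median in all arrays of the other, and no contig had the opposite pattern. Both were also low in Picual, at 20.4 ± 4.78 for Contig_32787 and 14.1 ± 3.31 for Contig_43245, and high in Arbequina, at 7516 ± 1467 and at 822 ± 95.9 (SD, n = 3 each). Chiquitita, the offspring of these varieties, had 5540.25 ± 2528 for Contig_32787 and 1234 ± 900 for Contig_43245 (SD, n = 3). With the low limit at the 20th percentile there were 6 contigs low in Arbosana and 3 low in ChiCa.

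Contig_19725, Contig_19727 and Contig_23128 had the reverse order in the parents of Chiquitita, being low in Arbequina as well as in Arbosana. Contig_19725 had 1924, 1894 and 1722 in ChiCa, against 15.9, 14.7 and 37.5 in Arbosana (log2 6.48, standard error 0.34, adjusted p = 2.98e-05). It averaged 19.7 ± 3.16 in Arbequina and 7854 ± 1019 in Picual (SD, n = 3 each). Contig_19727 had 4411, 1537 and 2254 in ChiCa, against 38.4, 30.2 and 17.0 in Arbosana (log2 6.52, standard error 0.82, adjusted p = 0.0024), with 18.0 ± 2.53 in Arbequina and 502 ± 299 in Picual. The high groups of Contig_19727 were widely spread, since the Chiquitita arrays alone ran from 743 to 11369.7. Contig_23128 had 4704, 4695 and 4032 in ChiCa, against 94.5, 31.4 and 57.1 in Arbosana (log2 6.34, standard error 0.39, adjusted p = 6.13e-05). It also separated the pools of the cross, with 111 ± 26.6 in the complex branching pool and 3219 ± 1152 in the simple branching pool (SD, n = 3 each). Contig_13354 had 2877, 2452 and 3145 in ChiCa, against 23.7, 28.9 and 364 in Arbosana (log2 5.48, standard error 0.82, adjusted p = 0.00486). Arbosana replicate 3 stood apart for this contig, and all 11 other groups averaged 940 or more.

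**Figure D3:**
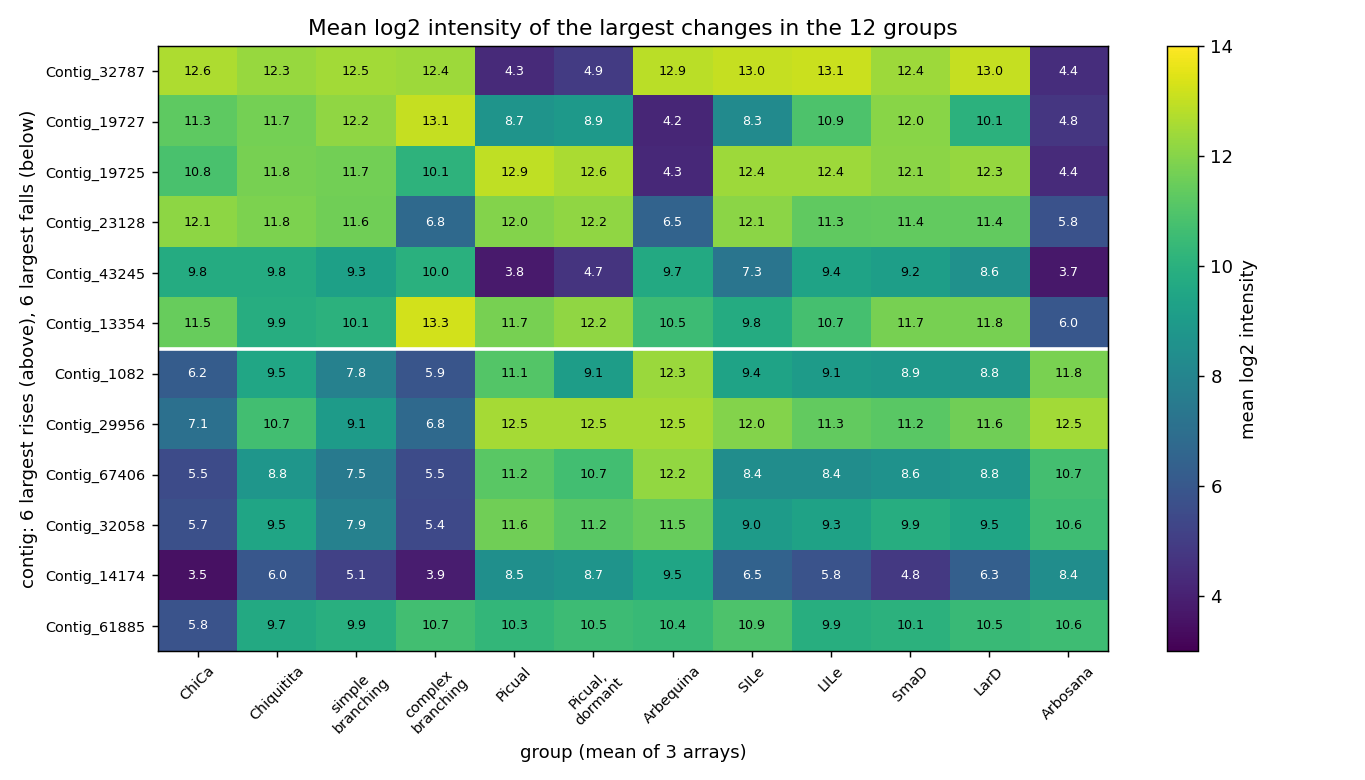
Mean log2 intensity (3 arrays per group, colour scale and printed values) of the 6 largest rises and the 6 largest falls in ChiCa against Arbosana, for each of the 12 groups. Contig_32787 and Contig_43245 are low in Arbosana and Picual, Contig_19725, Contig_19727 and Contig_23128 are low in Arbosana and Arbequina, and 5 of the 6 falls are low in ChiCa and in the complex branching pool.

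Of the 6 largest falls, 5 shared one pattern across the family, which was noticed after the values were seen. Contig_1082 had 82.1, 85.6 and 58.7 in ChiCa, against 3966, 3676 and 3109 in Arbosana (log2 -5.58, standard error 1.08, adjusted p = 0.0141). Contig_29956 had 179.8, 124 and 107 in ChiCa, against 5186, 5293 and 6436 in Arbosana (log2 -5.39, standard error 0.90, adjusted p = 0.00794). Contig_67406 and Contig_32058 fell with log2 differences of -5.18 and -4.92 (adjusted p = 0.0088 and 0.0107 from limma). Contig_14174 had 10.8, 10.7 and 12.8 in ChiCa, under the 10th percentile of those arrays, against 379, 277 and 367 in Arbosana. The size of its fall is therefore uncertain, with a log2 difference of -4.89 (adjusted p = 0.00243), or of -3.09 after 32 was added to each intensity. All 5 were about as low in the complex branching pool as in ChiCa, at 52.8 to 63.8 for Contig_1082 and at 99.6 to 122 for Contig_29956. The other relatives split within a group. In the simple branching pool Contig_1082 had 71.3 and 56.8 on replicates 1 and 2 and 2907 on replicate 3. In Chiquitita, whose arrays are of a single variety, it had 74.8 on replicate 1, and 1323 and 3886 on replicates 2 and 3. Contig_29956 split in the same way, with 215, 152 and 4651 in the simple branching pool and 234, 3942 and 4708 in Chiquitita. In all 5, Chiquitita replicate 1 lay with simple branching replicates 1 and 2. Simple branching replicate 3 lay with Chiquitita replicates 2 and 3. Without ChiCa replicate 1, Contig_1082 was no longer called (adjusted p = 0.0631).

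The same array stood out when all large falls were counted. These counts include the contigs in which the pattern was noticed, and so are a description. Of the 16 contigs at least 16-fold lower in ChiCa, Chiquitita replicate 1 lay at least 4-fold below every Arbosana array for 15, replicate 2 for 4 and replicate 3 for 3, and all 3 complex branching arrays did so for 14. The 29 contigs at least 16-fold higher in ChiCa showed no such split: Chiquitita replicates 1, 2 and 3 lay at least 4-fold above every Arbosana array for 28, 27 and 28 of them, and the complex branching arrays for 26. Over all 1189 lower contigs the counts for Chiquitita replicates 1 to 3 were 221, 125 and 184. For such contigs a difference between shoot samples and an exchanged sample among the Chiquitita and simple branching arrays cannot be told apart here. Chiquitita replicate 1 was part of the fit behind the calls, which numbered 3116 between ChiCa and Arbosana without it.

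Contig_61885, the sixth of the largest falls, was low in ChiCa alone. It had 53.7, 64.7 and 51.9 in ChiCa, against 1512, 1215 and 1982 in Arbosana (log2 -4.77, standard error 0.46, adjusted p = 0.000707). The simple branching pool had 1093, 949 and 909, the complex branching pool 1706, 1156 and 2149, and Chiquitita 1743, 792 and 386. In a fit over all 36 arrays ChiCa was lower than the simple branching pool by a log2 difference of -4.12 (standard error 0.37, adjusted p = 3.72e-07) and than the complex branching pool by -4.84 (standard error 0.37, adjusted p = 2.1e-09). Both parents and both other pools of the cross were above ChiCa on every array.

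Few contigs were called between the Chiquitita-like pool and the other pools of its own cross, which does not show that the levels were alike. In the fit over all 36 arrays, 6 contigs (0.016%) were called between ChiCa and the simple branching pool and 24 (0.0641%) between ChiCa and the complex branching pool. The same fit called 2715 contigs between ChiCa and Arbosana. Of the 2850 contigs called against Arbosana, both branching pools were closer to Arbosana for 73, 49 higher and 24 lower in ChiCa. The joint count was not made over all contigs. Taken singly, the simple branching pool was closer to ChiCa for 71.3% of all contigs and the complex branching pool for 69.2%. ChiCa was also called against both pools, in the same direction, for 2 of the 73. One was Contig_61885. The other, Contig_54911, had 5758, 6350.3 and 3638 in ChiCa, against 2268, 2152 and 1126 in Arbosana (log2 1.53, standard error 0.39, adjusted p = 0.0401). It was 1357, 1173 and 679 in the simple branching pool and 787.5, 809.9 and 596 in the complex branching pool, with no array of either as high as the lowest ChiCa array. Chiquitita had 1673, 693 and 1173, likewise under every ChiCa array.

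Because contigs low on one side give large folds, contigs at or above the array median in all 6 arrays were also ranked. Contig_30610 had 12143, 8955 and 11234 in ChiCa, against 2037, 2077 and 2162 in Arbosana (log2 2.35, standard error 0.25, adjusted p = 0.00125), and of the 12 groups ChiCa was the highest and Arbosana the lowest. Contig_20882 had 11787, 12546 and 11522 in ChiCa, against 1339, 1279 and 6002 in Arbosana (log2 2.46, standard error 0.50, adjusted p = 0.0173). Arbosana was the low group for Contig_20882 and the other 11 groups averaged 10048 or more, but Arbosana replicate 3 was nearer to them, and the call was lost without ChiCa replicate 1 or 2 or Arbosana replicate 2. Contig_62829 and Contig_67030 rose by 2.45 and 2.43 (adjusted p = 0.0274 and 0.0309 from limma) and lost their calls without any one ChiCa array or without Arbosana replicate 1 or 2, and Contig_67030 also without Arbosana replicate 3 (adjusted p of up to 0.117 and 0.110). In Chiquitita both were high on replicate 1 only, at 7878, 1361 and 1728 for Contig_62829 and at 10563.9, 2424 and 1403 for Contig_67030. Contig_20882, Contig_62829 and Contig_67030 also lost their calls with the replicate direction as a covariate (adjusted p = 0.0726, 0.0800 and 0.0939 from limma).

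The bright falls were larger. Contig_59288 had 1263, 1839.9 and 926 in ChiCa, against 18517, 15605 and 14712 in Arbosana (log2 -3.65, standard error 0.58, adjusted p = 0.00625). Contig_38904 had 1469, 3134 and 2638 in ChiCa, against 18976, 25962 and 20588 in Arbosana (log2 -3.24, standard error 0.41, adjusted p = 0.00262). Both were highest in Arbosana of the 12 groups, and Arbequina was the next, at 12860.0 ± 1680 for Contig_59288 and 14533 ± 3874 for Contig_38904 (SD, n = 3 each). Contig_36813 had 1379.8, 1724 and 2028 in ChiCa, against 7784, 13008 and 22459 in Arbosana (log2 -2.96, standard error 0.35, adjusted p = 0.0018), and all 11 other groups averaged 2958 or less. Contig_3962 fell by 3.17 (standard error 0.68, adjusted p = 0.0212) and was at 17639 ± 5973 (SD, n = 3) in Arbequina, above Arbosana at 13559 ± 2451. Its call was lost without any one ChiCa array or without Arbosana replicate 1 or 2 (adjusted p of up to 0.0763).

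The 12 groups were ranked by their mean log2 value for each contig. For 1661 higher calls Arbosana had the lowest mean of the 12 groups in 939 (56.5%), while ChiCa had the highest in 454 (27.3%). For 1189 lower calls Arbosana had the highest mean in 731 (61.5%) and ChiCa the lowest in 264 (22.2%). Over all contigs Arbosana was the lowest group for 14.02% and the highest for 11.3%, and ChiCa the lowest for 5.36% and the highest for 6.73%. The call itself favours extremes of both groups, so these shares are a description. ChiCa has relatives in the series and Arbosana has fewer. With Chiquitita and the branching pools left out, ChiCa was at the extreme for 43.2% of the called contigs and Arbosana for 58.9%, beside 21.3% and 28.1% of all contigs. Among all 12 groups, ChiCa was at the extreme for 25.2% of the calls, which became 40.5% without ChiCa replicate 3.

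The relatives lay with ChiCa. Chiquitita was closer to ChiCa than to Arbosana for 92.1% of the called contigs, the simple branching pool for 92.6% and the complex branching pool for 88.7%, against 69.2, 71.3 and 69.2% of all contigs. Taken singly, their arrays ranged over 79.1 to 94.9%, 81.8 to 85.8% and 84.5 to 86.7% of the called contigs, so that both branching pools had a higher share by their mean than on any one array. All 9 arrays of these 3 groups lay beyond every Arbosana array, on the ChiCa side, for 1200 of 1661 higher calls (72.2%) and 833 of 1189 lower calls (70.1%). Of all contigs with a higher or a lower ChiCa mean, called or not, 12.9 and 11.3% did so. The call picks contigs with a wide gap between ChiCa and Arbosana, which by itself can raise such shares above those of all contigs. The shares are therefore a description. Chiquitita shared the fit that made the calls but not the contrast, and the branching pools took no part in either. Both pools have Arbosana as a parent, as ChiCa has.

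No contig was called between ChiCa and Chiquitita in the same limma fit, where the lowest adjusted p was 0.206. At an unadjusted p under 0.05 limma gave 1871 contigs, and the test named in the methods, which does not adjust p, gave 281 with a 2-fold minimum. Without Chiquitita replicate 1, 198 contigs were called, 112 higher and 86 lower in ChiCa. The median absolute log2 difference was 0.22 between ChiCa and Chiquitita and 0.40 between ChiCa and Arbosana. Chiquitita arrays varied more than ChiCa arrays, with an SD over 1 on the log2 scale for 3.99% of contigs, against 0.705% in ChiCa, so the absence of calls does not show that the levels were alike.

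The remaining groups were spread more widely. Picual was closer to ChiCa for 69.1% of the called contigs (58.0 to 71.2% by array) and Arbequina for 52.7% (48.6 to 55.7%), against 60.2 and 52.9% of all contigs. Both parents of Chiquitita were on the ChiCa side for 1186 of the 2850 called contigs, Picual alone for 783, Arbequina alone for 315 and neither for 566. These were 41.6, 27.5, 11.1 and 19.9% of the calls, beside 38.2, 22.1, 14.7 and 25.04% of all contigs. The 29 contigs at least 16-fold higher in ChiCa divided into 13 with both parents on the ChiCa side, 8 with Picual alone, 7 with Arbequina alone and 1 with neither. For the 16 contigs at least 16-fold lower the counts were 1, 3, 0 and 12, so that in most of them Picual and Arbequina were nearer to Arbosana. Among the Picual x Arbequina pools, LILe was closer to ChiCa for 78.4%, SmaD for 73.6%, LarD for 62.3% and SILe for 60.9% of the called contigs, against 58.0, 62.2, 49.04 and 50.4% of all contigs, and the single SILe arrays ran from 43.2 to 86.1%.

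**Figure D4:**
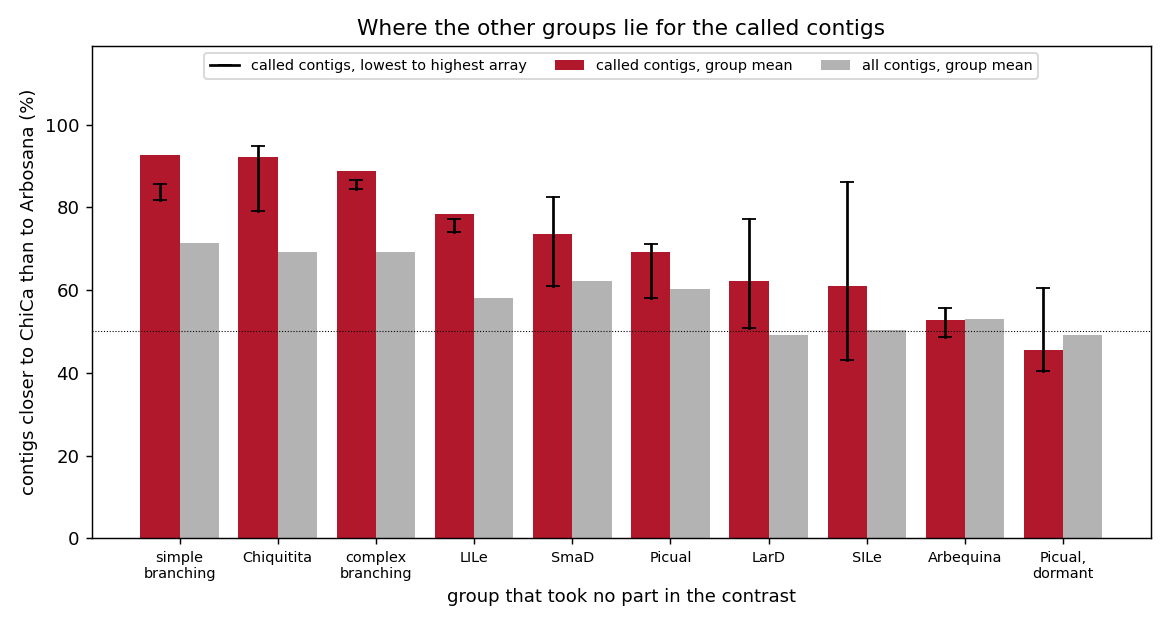
Percent of contigs for which a group's mean log2 intensity was closer to ChiCa than to Arbosana, over the 2850 called contigs (red) and over all contigs (grey), with a black line from the lowest to the highest single array of the group and a dotted line at equal shares. Chiquitita and the 2 branching pools stand at 88.7 to 92.6% of the called contigs, and dormant Picual at 45.4%.

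Whether the shoot tips differed in growth activity was looked at through Picual, of which dormant and active meristems were measured on arrays of neither group. Between dormant and active Picual 2679 contigs (7.15%) were called, 969 higher and 1710 lower in dormant meristems. Of the 1710 contigs lower in dormant Picual, 186 (10.9%) were called higher in ChiCa than in Arbosana and 63 (3.68%) lower, with a median log2 difference of 0.29, against 0.07 over all contigs. Of the 969 contigs higher in dormant Picual, 49 (5.06%) were called higher in ChiCa and 118 (12.2%) lower, with a median of -0.11. The first median was above that of all contigs and the second below it under each scaling tried. Taken by array, the contigs lower in dormant Picual had medians of 0.20, 0.18 and 0.07 around the mean of the 6 arrays in ChiCa, against -0.07, -0.17 and -0.16 in Arbosana, with no overlap. The contigs higher in dormant Picual had -0.09, -0.09 and 0.01 in ChiCa, against 0.25, -0.05 and -0.02 in Arbosana, so that their groups overlapped. The arrays also differed over all contigs, whose medians were 0.06, 0.04 and 0.01 in ChiCa, against 0.10, -0.07 and -0.12 in Arbosana. Relative to these medians, the contigs higher in dormant Picual lay at -0.15, -0.13 and 0.001 in ChiCa, against 0.14, 0.017 and 0.10 in Arbosana, with no overlap but with ChiCa replicate 3 and Arbosana replicate 2 close together. Without Arbosana replicate 1 their median difference was -0.04, against 0.14 over all contigs. CDC45, the replication gene, was 540 ± 143 in dormant and 1969 ± 457 in active Picual (SD, n = 3 each). The dormant arrays, of a single variety, differed widely for some contigs. IRX1 had 5925, 56.3 and 41.3 on dormant replicates 1 to 3, while CDC45 had 529, 688 and 402. Growth activity as a source of the differences between ChiCa and Arbosana was not tested and cannot be told apart from genotype here.

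**Figure D5:**
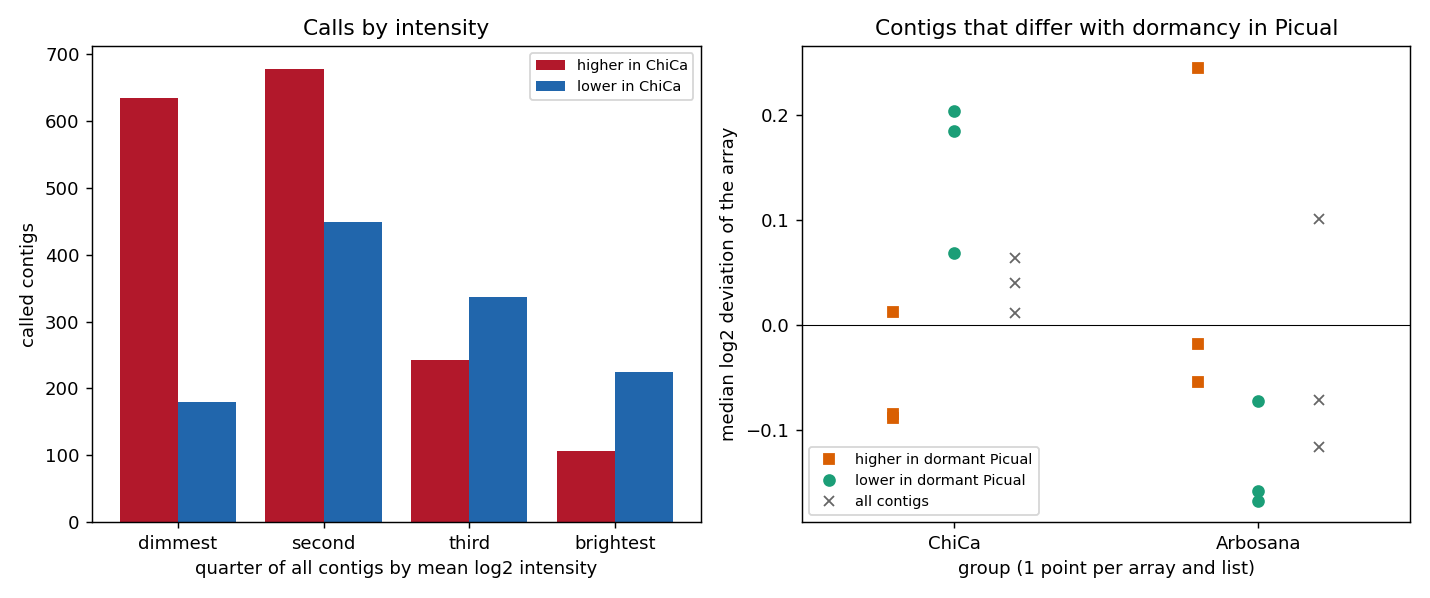
Left, number of contigs called higher (red) and lower (blue) in ChiCa in 4 equal bins of all contigs by mean log2 intensity: 634 and 179 in the dimmest, 106 and 225 in the brightest. Right, median log2 deviation of each array from the mean of the 6 arrays, ChiCa left and Arbosana right, for contigs higher in dormant Picual (squares), lower in dormant Picual (circles) and all contigs (crosses).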

How the data were processed

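RNA of active shoot tips was hybridized by the authors, 1 sample per NimbleGen array (Cy3), and normalized with RMA; the software version is not given in the sources used here. The deposited table gives each contig a normalized intensity for every array, not log transformed (6.74 to 62499), and log2 was taken here. Each array was assigned by the name of its column. The 36 columns of another deposited file could not be tied to samples and were left out, so raw signals and background were not examined. An array has no read depth.

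limma 3.58.1 (lmFit, eBayes; R 4.3.3) was fitted to the 9 arrays of ChiCa, Chiquitita and Arbosana with no covariate and no filter, with Benjamini-Hochberg adjustment across the 37449 contigs. A call needed an adjusted p under 0.05 and a 2-fold change. The fit was tested on simulated data. Figures used Python 3.11.15, numpy 2.4.6 and matplotlib 3.10.9. The contigs described are the 14 the study names, the 6 largest rises and falls among calls without overlap, the 4 largest of each among such calls at or above the array median in all 6 arrays, and up to 2 contigs in each direction that were near the floor in one group and bright in the other. Contig_54911 was added after its values were seen. Members, lists and rules were chosen with earlier results of these data known. Replicate numbers did not pair the arrays. No contig matched the reference table of olive genes, so gene lists other than the named contigs were not analysed here. Alternatives were other arrays in the fit, each replicate left out, a replicate block, a replicate direction (the first component of the deviations from group means in other groups, SILe left out), array weights, an intensity trend with robust variances, other scalings, a filter on the dimmest 25%, a pseudocount of 32 and the methods' t-test (two-sided, with equal variances and unadjusted p).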

Additional observations from a re-analysis of the deposited data

How the results depend on the processing

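The 2850 calls between ChiCa and Arbosana became 5638 with array weights, whose estimation stopped before convergence, 1626 with the replicate direction as a covariate, 676 at 4-fold or more and 472 by the methods' t-test after Benjamini-Hochberg adjustment. Leaving out 1 of the 9 arrays gave 560 to 3585 calls, and the 5 arrays of ChiCa and Arbosana without ChiCa replicate 1, fitted alone after seeing the data, gave 484. In the other alternatives the count stayed within 1.5 times, at 2105 to 4041. Replicate numbers are shared by the groups but do not pair the arrays (correlation of deviations 0.06, -0.44 and -0.25 for the same numbers); with the replicate number as a block there were 2556 calls, and the block added no call between ChiCa and Chiquitita. Between ChiCa and Chiquitita, against no call, there were 2 calls on their 6 arrays alone, 11 in 1 fit over all 36 arrays, 694 at an unadjusted p under 0.05 and a 2-fold change with limma, 281 when the methods' t-test was run on log2 intensities, 217 when it was run on linear ones, and 0 to 198 with 1 array left out.

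None of the contigs named by rule or by the study changed direction in any alternative. With 1 array left out, 257 of their values kept their side of the threshold, 47 lost the call and 2 gained it. In the other alternatives 381 kept it, 18 lost the call and 7 gained it. The contigs low in Arbosana and bright in ChiCa numbered 1 with the low limit at the 5th percentile, 6 at the 20th, 1 with the bright limit at the 75th, and 2 to 4 with 1 array left out; those low in ChiCa numbered 3 at the 20th percentile. On linear intensities the simple branching pool was closer to ChiCa for 89.1% and the complex branching pool for 85.0% of the called contigs, and with 1 array left out for 90.3 to 95.2% and 81.8 to 93.2%. ChiCa was the extreme group for 43.2% of the called contigs without Chiquitita and the branching pools. Among all 12 groups ChiCa was the extreme for 25.2% and Arbosana for 58.6% of the called contigs. With 1 array left out these became 20.7 to 40.5% and 57.0 to 68.8%, again among all 12 groups. For the dormant Picual lists at 4-fold the median log2 differences were -0.35 and 0.38. Depth does not apply to arrays; the 3 arrays of each group and intensities near the floor limit the sizes given.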
